A study of Bos taurus with 147 samples.

Results

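MYH1, ACTN3, MYOZ1 and MYL1 are 4 contractile genes of fast muscle fibers. They were chosen by symbol from the 976 genes that carry a single gene name in the annotation of the array. Expression was measured in longissimus muscle, a back muscle of cattle, on two-colour cDNA microarrays that each compared the RNA of a pair of groups. On 25 arrays, muscle of fetuses at d 60, d 135 and d 195 of gestation and of calves at birth was compared. At d 60 the muscle could not yet be identified, and the study took tissue at its future position. The study also saw a possible bias from RNA amplification in a d 60 sample, and its discussion focuses on d 135, d 195 and birth. The dams were Herefords and the sires either Piedmontese or Wagyu. The sire breeds differ at the gene of myostatin (GDF8), a brake on muscle growth, since each Piedmontese-sired fetus had a sire with a missense change in both copies of the gene, and the Wagyu bulls were free of it. On a further 20 arrays, Piedmontese x Hereford (Piedmontese-sired) and Wagyu x Hereford (Wagyu-sired) animals were compared at 3 later times named T1, T2 and T3. The ages at these times and the number of animals behind them are not given in the sources used here. The study's methods state 3 animals per fetal group, and each of 4 groups had a single sire: Piedmontese-sired d 60, Piedmontese-sired d 195, which includes twins, and Wagyu-sired d 60 and d 135, which shared their bull. Since arrays were not tied to animals by the labels, p-values measure only the spread between arrays.

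Skeletal muscle contracts when myosin heads of the thick filament pull on actin filaments that are anchored in the Z-disc. Heavy chain isoforms set the speed of a fiber, light chains brace the lever arm of the myosin head, and alpha-actinins cross-link the actin filaments in the Z-disc, where myozenins bind them. MYH1 encodes the heavy chain of fast type IIx fibers, MYL1 the essential light chain of fast myosin, ACTN3 the alpha-actinin that is restricted to fast fibers, and MYOZ1 (calsarcin-2) a fast fiber protein that ties alpha-actinin to calcineurin. Many of these proteins exist as several isoforms, and which of them a fiber makes depends on its type and its age.

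The values were read as log2 ratios of Cy5 over Cy3, a difference of 1 standing for a factor of 2. The table of values does not state this direction. It is likely, and was taken from the dye labels and the order of hybridisations in the study's design. Under it MYH1, ACTN3 and MYOZ1 rose from d 60 to birth, as they did in the study's own ratios. Each array was centred on its median. MYH1 was represented by 12 array elements from 5 cDNA clones, ACTN3 by 8 from 4 clones, MYOZ1 by 42 from 19 clones and MYL1 by 38 from 19 clones, and the elements of a gene were averaged on each array. Between 19404 and 20771 elements per fetal array had a usable ratio, and between 20794 and 20946 per later array. The 8 fetal groups were joined in a ring, each group being hybridised with its neighbours in 1 dye direction. Piedmontese-sired and Wagyu-sired RNA shared arrays at d 60 and at birth only. Fitted values came from limma over all features of an experiment (16659 fetal, 17253 later), adjusted p-values are Benjamini-Hochberg values over those features, and 0.05 was the threshold.

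From d 60 to birth MYH1 rose 9.02-fold, ACTN3 8.78-fold, MYOZ1 10.7-fold and MYL1 5.03-fold as the mean of both sire breeds. All 4 passed the test (limma adjusted p = 3.41e-08, 3.62e-08, 2.39e-09 and 3.89e-08), as did 48.2% of all features in either direction and 22.6% with a higher value at birth. The routes by which the genes reached these levels differed. MYL1 rose in the first and second of the 3 steps between stages with no rise past the threshold in the last, ACTN3 rose most in the second step, and MYH1 and MYOZ1 rose in each step, with the last larger than the second for MYOZ1. In whole muscle, fewer fast fibers and less RNA per fiber cannot be told apart.

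**Figure D1:**
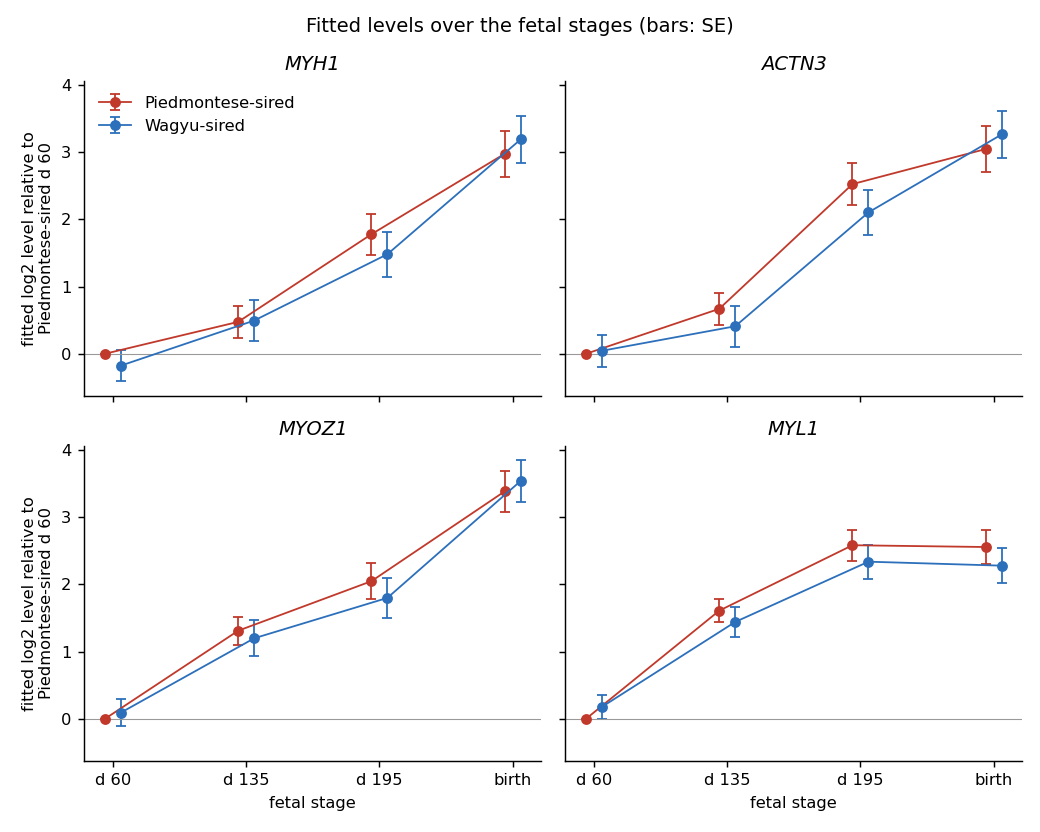
Fitted log2 level of each gene (y axis, relative to Piedmontese-sired d 60) at the 4 fetal stages (x axis), with SE bars, in Piedmontese-sired and Wagyu-sired muscle. MYH1, ACTN3 and MYOZ1 end between 2.98 and 3.54 at birth, while MYL1 is at 2.34 and 2.58 by d 195 and at 2.28 and 2.56 at birth.

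MYH1, the motor of fast IIx fibers, rose by small amounts early and by larger amounts late. From d 60 to d 135 the log2 ratios of the later over the earlier stage were 0.61, 0.37 and 0.30 on the Piedmontese-sired arrays and 1.08, 0.51 and 0.57 on the Wagyu-sired arrays. From d 135 to d 195 they were 1.33, 1.19 and 1.24 in Piedmontese-sired muscle and 0.71, 0.94, 1.25 and 1.24 in Wagyu-sired muscle. From d 195 to birth they were 0.87, 1.28 and 1.30 and, with the widest spread, 2.74, 1.76 and 0.78. Every one of these 19 ratios was above 0. The fitted log2 changes over both breeds were 0.57 (SE 0.18, limma adjusted p = 0.0183), 1.15 (SE 0.17, adjusted p = 7.36e-05) and 1.45 (SE 0.18, adjusted p = 8.85e-07). The last step exceeded the first by 0.88 (adjusted p = 0.00868), where 40.9% of features differed, and the difference was 0.36 (adjusted p = 0.321) when the arrays were scaled to one spread and 0.78 (adjusted p = 0.136) without the arrays numbered 2. The call for d 60 to d 135 was lost without Wagyu-sired array 1 (0.48, adjusted p = 0.080), without Piedmontese-sired array 1 (0.53, adjusted p = 0.0594) or without the arrays numbered 2 (0.64, adjusted p = 0.114). In the study's own ratios, from averaged signal intensities of fewer array elements, MYH1 was instead lower at d 135 than at d 60. The reason for this difference in direction was not tested.

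In the order of its fitted levels, MYH1 was lowest at Wagyu-sired d 60 (-0.18 relative to Piedmontese-sired d 60) (SEs of the levels 0.24 to 0.35) and then stood at 0.48 and 0.49 in both breeds at d 135, at 1.48 in Wagyu-sired and 1.78 in Piedmontese-sired muscle at d 195, and at 2.98 and 3.19 at birth. Of the 7 pairs of neighbours in that order, 2 differed, namely Wagyu-sired d 195 over Wagyu-sired d 135 (0.99, adjusted p = 0.0045) and Piedmontese-sired birth over Piedmontese-sired d 195 (1.20, adjusted p = 0.000417).

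MYL1, whose product embraces the neck of the fast myosin head, had its rise before d 195. Its ratios from d 60 to d 135 were 0.98, 1.93 and 1.71 in Piedmontese-sired muscle and 1.44, 1.50 and 1.05 in Wagyu-sired muscle. From d 135 to d 195 they were 1.10, 1.24 and 0.38 in the former and 1.01, 0.88, 0.85 and 1.12 in the latter. All 13 were above 0. From d 195 to birth the ratios scattered around 0, with -0.05, -0.47 and 0.23 in Piedmontese-sired and -0.20, -0.03 and 0.26 in Wagyu-sired muscle, and 2 of the 6 were above 0.

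The fitted changes of MYL1 were 1.44 (SE 0.13, adjusted p = 2.93e-07), 0.94 (SE 0.12, adjusted p = 2.61e-05) and -0.04 (SE 0.13, adjusted p = 0.81). The 95% interval of the last change reached from -0.32 to 0.23, so that a rise of the size that MYH1 or MYOZ1 showed in the same step lay outside it. The test of the last step against the second gave -0.98 (adjusted p = 0.000338), and against the first -1.48 (adjusted p = 5.90e-06). In the order of levels, MYL1 differed between neighbours at Wagyu-sired d 135 over Wagyu-sired d 60 (1.26, adjusted p = 0.000153) and at Wagyu-sired birth over Piedmontese-sired d 135 (0.67, adjusted p = 0.0484), and the 4 groups of d 195 and birth lay between 2.28 and 2.58 without a difference between neighbours that passed.

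ACTN3, the fast fiber cross-linker of actin filaments in the Z-disc, had its main rise between d 135 and d 195. The ratios of that step were 2.13, 1.84 and 1.75 in Piedmontese-sired and 2.04, 1.75, 1.19 and 1.60 in Wagyu-sired muscle. In the step before they were 0.56, 0.35 and 1.25 and 0.22, 0.33 and 0.40, and in the step after 0.76, 0.47 and 0.48 and 1.67, 1.03 and 0.64. All ratios of ACTN3 over time were above 0, and 6 of the 7 in the middle step were above every ratio of the first step (highest 1.25).

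The fitted changes of ACTN3 were 0.52 (SE 0.18, adjusted p = 0.0315), 1.78 (SE 0.17, adjusted p = 3.05e-07) and 0.84 (SE 0.18, adjusted p = 0.000495). The middle step exceeded the first by 1.26 (adjusted p = 0.00429), where 3.17% of features had a higher and 4.77% any difference past the threshold. The last step was below the middle step by a log2 difference of -0.93 (adjusted p = 0.00564), where 34.7% of features passed. Without the arrays numbered 2 both differences missed the threshold (1.17, adjusted p = 0.194 and -0.89, adjusted p = 0.081). The first rise of ACTN3 had the highest adjusted p of the 11 step changes that passed. Its call was lost without Piedmontese-sired array 3, which held the ratio of 1.25 (0.39, adjusted p = 0.157), without Wagyu-sired array 1, 2 or 3 (0.54, 0.51 and 0.50, with adjusted p = 0.0542, 0.0723 and 0.0827), without the arrays numbered 2 or 3 (0.61, adjusted p = 0.128 and 0.36, adjusted p = 0.213), without centring (0.52, adjusted p = 0.0673) and with scaled arrays (0.51, adjusted p = 0.0557).

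The levels of ACTN3 followed the stages, from 0 and 0.04 at d 60 through 0.41 and 0.67 at d 135 and 2.11 and 2.53 at d 195 to 3.05 and 3.27 at birth. None of the 7 pairs of neighbours in that order passed. The widest gap, Wagyu-sired d 195 over Piedmontese-sired d 135, was 1.44 with an unadjusted p of 0.000541 (limma adjusted p = 0.106), between groups that were joined only through other arrays.

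MYOZ1, the calsarcin of the fast fiber Z-disc, rose early and late with a smaller step between. From d 60 to d 135 its ratios were 1.45, 1.21 and 1.17 in Piedmontese-sired and 0.96, 1.65 and 0.82 in Wagyu-sired muscle. From d 135 to d 195 they were 0.80, 0.97 and 0.34 and 1.02, 0.77, -0.05 and 0.80, so that 1 Wagyu-sired array of 7 showed no rise. From d 195 to birth they were 1.37, 0.70 and 1.83 and 1.89, 1.72 and 1.72, and all 6 were above 0.

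Fitted changes of MYOZ1 were 1.21 (SE 0.16, adjusted p = 9.38e-06), 0.67 (SE 0.15, adjusted p = 0.00333) and 1.54 (SE 0.16, adjusted p = 5.85e-08). The last step exceeded the middle one by 0.87 (adjusted p = 0.00371), but with arrays scaled to one spread the difference was 0.26 (adjusted p = 0.451), and without the arrays numbered 3 it was 0.54 (adjusted p = 0.090). The difference between the middle and the first step did not pass (-0.54, adjusted p = 0.145). Without the arrays numbered 1 the middle rise itself was 0.58 (adjusted p = 0.0942). MYOZ1 levels stood at 0 and 0.09 at d 60, 1.20 and 1.31 at d 135, 1.80 and 2.05 at d 195 and 3.39 and 3.54 at birth, and 2 pairs of neighbours differed, Wagyu-sired d 135 over Wagyu-sired d 60 (1.11, adjusted p = 0.00157) and Piedmontese-sired birth over Piedmontese-sired d 195 (1.34, adjusted p = 3.03e-05).

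**Figure D2:**
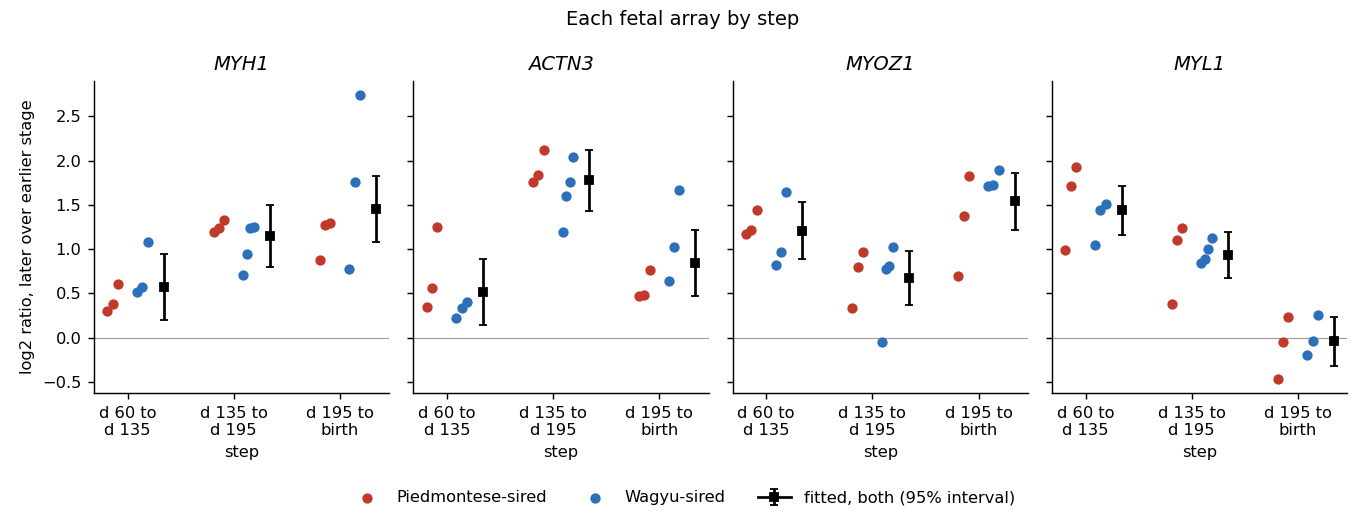
Log2 ratio of the later over the earlier stage (y axis) on each fetal array in the 3 steps (x axis), coloured by sire breed, with the fitted change over both breeds and its 95% interval as black squares. The MYL1 arrays of the last step lie on both sides of 0, and the 7 ACTN3 arrays of the middle step lie between 1.19 and 2.13.

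Counted over both breeds, 4 of the 4 genes passed in the first step, where 31% of all features passed in either direction and 14% upward. In the second step 4 passed against a background of 16.8% (10.6% upward), and in the third 3 passed against 52.5% (26.7% upward). Within Piedmontese-sired muscle 3, 4 and 2 genes passed in the 3 steps (backgrounds of 26.7%, 4.95% and 39.7%), and within Wagyu-sired muscle 2, 4 and 3 (11.8%, 8.33% and 44.6%). The within-breed calls of MYOZ1 for the middle step were fragile. They had adjusted p = 0.042 and 0.045, and were lost with single arrays left out and with array number as a block (0.73, adjusted p = 0.0705 in Piedmontese-sired and 0.55, adjusted p = 0.177 in Wagyu-sired muscle). Other within-breed calls were lost under 1 of 8 alternative settings each. These were MYL1 in the middle step (limma adjusted p = 0.0662) and ACTN3 in the first (0.0720) in Piedmontese-sired muscle, and ACTN3 in the last (0.0796) in Wagyu-sired muscle.

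Differences between the genes in the size of a change were taken on each array, so that the same arrays served both genes of a pair. From d 60 to d 135, the motor and the cross-linker rose less than the light chain and the calsarcin. The change of MYH1 minus that of MYL1 was -0.86 (95% interval -1.37 to -0.35), and minus that of MYOZ1 it was -0.64 (-1.10 to -0.17). The change of ACTN3 minus that of MYL1 was -0.92 (-1.40 to -0.44), and minus that of MYOZ1 it was -0.69 (-1.10 to -0.29). The intervals of MYH1 against ACTN3 (0.06, -0.31 to 0.42) and of MYOZ1 against MYL1 (-0.23, -0.56 to 0.11) included 0.

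In the middle step the mean over the elements of ACTN3 rose more than that of each other gene, by 1.11 over MYOZ1 (0.73 to 1.49) and by 0.84 over MYL1 (0.40 to 1.29), and MYH1 minus ACTN3 was -0.63 (-0.97 to -0.29). In the last step MYL1 changed less than the other 3, the differences being 1.50 for MYH1 (0.99 to 2.01), 0.88 for ACTN3 (0.41 to 1.36) and 1.58 for MYOZ1 (1.25 to 1.92), while MYH1 and MYOZ1 could not be separated (-0.09). Over the whole span only the interval of MYOZ1 against MYL1 excluded 0, at 1.09 (0.52 to 1.66). Of 24 such intervals over the 3 steps and the whole span, 14 excluded 0.

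Clones of a gene are different cDNA inserts printed as separate elements. They are not replicates of a stage, but they show whether the mean of a gene rested on a few of them. Between d 60 and birth the fitted change was above 0 for all 5 MYH1 clones (2.41 to 3.81), all 4 ACTN3 clones (2.29 to 4.44) and all 19 MYL1 clones (0.58 to 2.64, median 2.50). Of the 19 MYOZ1 clones 17 were above 0, with a median of 3.91 and a highest value of 4.97, and the lowest clone, at -1.49, had an interval below 0. In the last step 17 MYOZ1 clones had intervals above 0 and 2 had intervals below 0 (lowest -0.94), so that the median over clones, 1.85, stood above the mean of the elements. By the same count, 9 of the 19 MYL1 clones were above 0 in the last step (-0.21 to 0.17) and no clone had an interval that excluded 0. In the middle step 4 of 5 MYH1 clones had intervals above 0, and the exception stood at -0.09. All 4 ACTN3 clones had intervals above 0 in that step, with changes from 0.84 to 2.67. The lowest of them lay below the median clone of MYL1 (0.98) and of MYH1 (1.41). In the first step the ACTN3 clones ran from 0.23 to 0.85, and 1 of 4 had an interval above 0.

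**Figure D3:**
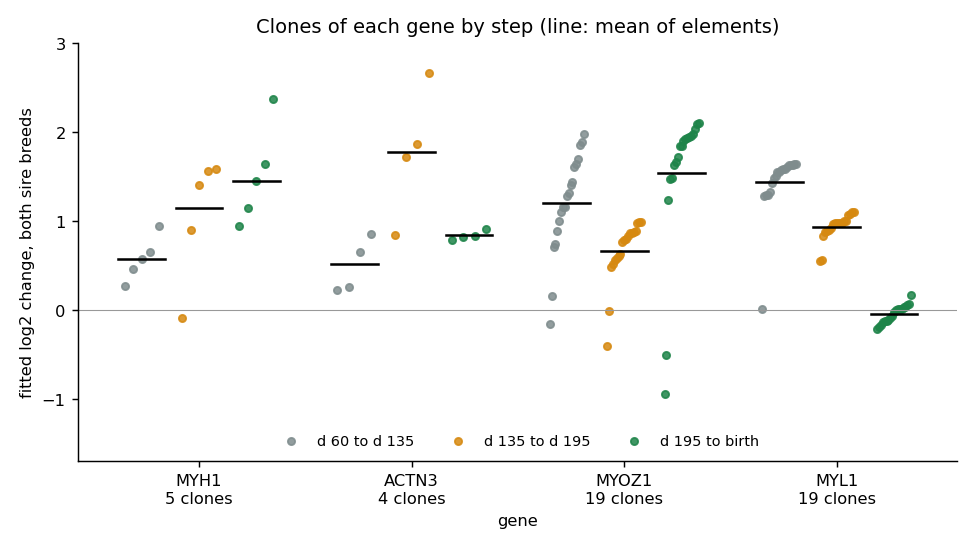
Fitted log2 change over both sire breeds (y axis) of each cDNA clone of the 4 genes (x axis), in the 3 fetal steps by colour, with the mean of the gene's elements as a black line. The 19 MYL1 clones lie between -0.21 and 0.17 in the last step, and 2 of the 19 MYOZ1 clones lie below the others there.

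Clones that carry more than 1 gene name were kept out of the means. The 11 clones annotated MYH2;MYH2;MYH1, which cannot tell the IIx heavy chain from the IIa heavy chain of a neighbouring gene, had fitted values of 0.86, 1.69 and 1.50 in the 3 steps. Myosin heavy chain genes are alike in sequence, and the share of signal from other heavy chains on the MYH1 elements was not tested. A single clone annotated BOLA-DRA;MYL1 had 1.56, 0.79 and 0.02.

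Between sire breeds the 4 genes did not pass at any fetal stage. Piedmontese-sired over Wagyu-sired muscle gave for MYH1 0.18 at d 60, -0.02 at d 135, 0.30 at d 195 and -0.21 at birth. For ACTN3 the differences were -0.04, 0.26, 0.42 and -0.22, for MYOZ1 -0.09, 0.11, 0.25 and -0.16, and for MYL1 -0.18, 0.17, 0.25 and 0.28. None of the 16 had an unadjusted limma p under 0.05, and few features of the array passed at all, 0.048% at d 60, 0% at d 135 and d 195, and 0.276% at birth. The intervals were wide where the breeds met only through the loop. For ACTN3 at d 195 the interval was -0.29 to 1.13, and for MYH1 -0.42 to 1.01. The study, with another model and threshold, describes ACTN3 and MYH1 as more highly expressed in Piedmontese-sired fetuses. These intervals include a higher level in Piedmontese-sired muscle.

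At birth the breeds shared arrays. The MYL1 ratios of Piedmontese-sired over Wagyu-sired muscle were 0.22, 0.34 and 0.47, all above 0, with a fitted difference of 0.28 (95% interval -0.09 to 0.64, adjusted p = 0.389). ACTN3 went both ways, with 0.83, -0.60 and -1.03, and its fitted difference of -0.22 (adjusted p = 0.646) became -0.70 (adjusted p = 0.0373) without the first of these arrays. MYH1 was split in the same manner (0.52, -0.46 and -0.56), and MYOZ1 had 0.16, -0.69 and 0.17. The same array was thus the highest for ACTN3 and MYH1 and the lowest for MYL1.

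At d 60 the ratios of Piedmontese-sired over Wagyu-sired muscle were -0.28, 0.47 and 0.19 for MYH1, -0.12, 0.18 and -0.04 for ACTN3, -0.37, -0.02 and 0.01 for MYOZ1 and -0.12, -0.67 and 0.04 for MYL1. No gene had the same sign on all 3 arrays. A difference between breeds at d 60 cannot be told apart from one between the bulls. The change over time in Piedmontese-sired minus that in Wagyu-sired muscle was tested in 24 contrasts of the 4 genes. None passed or had an unadjusted limma p under 0.05, and the lowest unadjusted p was 0.0502, for ACTN3 in birth over d 195 (difference -0.64, limma adjusted p = 0.288). Of all features 13.2% passed for birth over d 60, 0.012% for d 195 over d 135 and 0% in the other 4 spans.

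Other genes of fast fibers were described beside all features of the array. Of 17 listed fast fiber genes besides the 4, 7 were measured under a single name. All 7 rose from d 60 to d 135, where 14% of all features rose (median log2 change 0.79, against -0.03 over all features), and 5 of 7 rose from d 135 to d 195, where 10.6% did (median 0.56 against -0.05). From d 195 to birth 2 of 7 rose, a share near that of all features (26.7%), and 1 fell (25.8% of features), with a median of -0.00030 against 0.00067. The fast troponin I gene TNNI2, which belongs to the switch of the thin filament, had values of 1.27 (adjusted p = 2.47e-06), 0.69 (adjusted p = 0.00139) and -0.09 (adjusted p = 0.634). TPM1, the tropomyosin that covers the myosin sites on actin, had 0.84, 0.81 and 0.12, of which the last did not pass (adjusted p = 0.481). ATP2A1, the calcium pump of the fast sarcoplasmic reticulum, rose in each step by 0.44, 0.56 and 0.84 (adjusted p = 0.0136, 0.00313 and 1.67e-05), and CASQ1, the calcium-binding protein of that store, by 0.79, 0.84 and 0.50.

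MYOZ3, another calsarcin of fast fibers, went against its relative MYOZ1 in the last step. It rose by 0.64 to d 135 (adjusted p = 0.035), had 0.20 in the next step (adjusted p = 0.566) and fell by 1.23 on the log2 scale from d 195 to birth (adjusted p = 0.000107). The fast regulatory light chain MYL11 (1.12, 0.48 and -0.21) and the fast troponin T gene TNNT3 (0.65, 0.47 and 0.00), named after their values were seen, had no rise past the threshold in the last step (adjusted p = 0.361 and 0.999).

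Of 15 listed slow fiber genes, 8 were measured. From d 60 to d 135 3 of them rose and 1 fell, from d 135 to d 195 2 rose, and from d 195 to birth 6 rose (median 0.96 against 0.00067 over all features). The share of all features that rose was also highest in the last step, at 14%, 10.6% and 26.7% in turn. TNNT1, the slow troponin T, had 0.15 (adjusted p = 0.299), 0.63 (adjusted p = 0.000155) and 1.03 (adjusted p = 6.50e-08). MYL3, the slow counterpart of MYL1, had -0.03 (adjusted p = 0.898), 0.61 (adjusted p = 0.00225) and 0.75 (adjusted p = 0.000101). TNNC1, the slow troponin C, had 0.60, 0.36 and 0.89, and the muscle LIM protein gene CSRP3 had 1.07, 0.35 and 1.33, of which the middle values did not pass (adjusted p = 0.0614 and 0.256). The slow tropomyosin TPM3 was the gene that fell in the first step, by 0.48 on the log2 scale (adjusted p = 0.0287), and it rose by 1.52 in the last (adjusted p = 1.16e-07). MYL3 thus passed in the step in which MYL1 did not, and the difference between the pair was not tested.

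**Figure D4:**
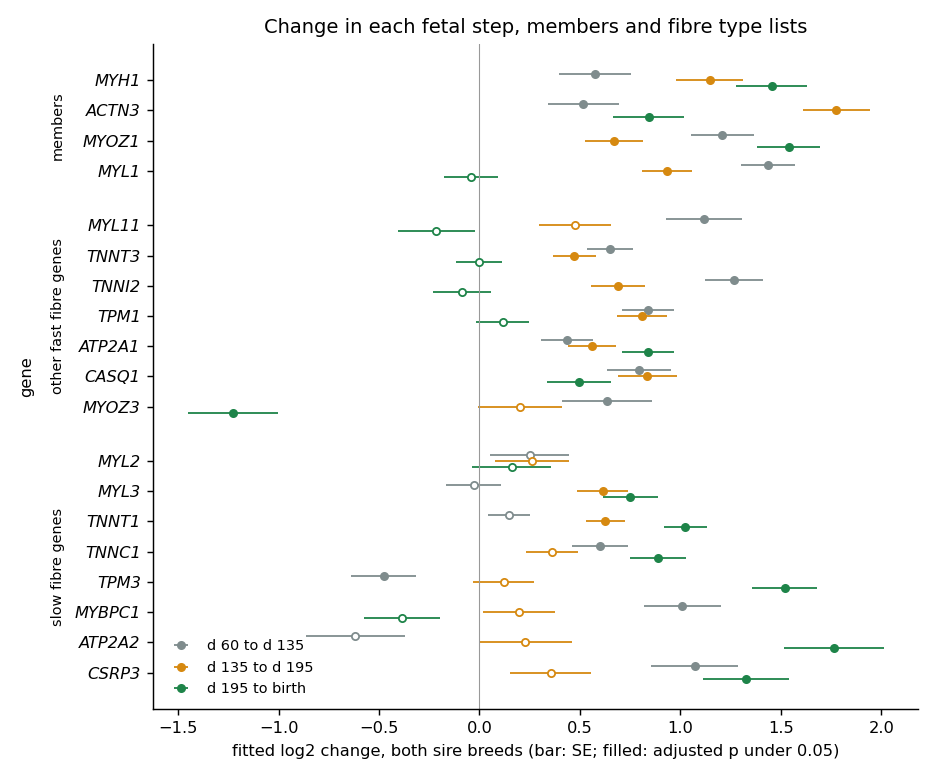
Fitted log2 change over both sire breeds (x axis, SE bars, filled where the adjusted p was under 0.05) in the 3 fetal steps by colour, for the 4 genes and the measured fast and slow fiber genes (y axis). In the last step the fast fiber genes went different ways. MYL1, MYL11, TNNT3, TNNI2 and TPM1 lie between -0.21 and 0.12, while MYH1, ACTN3 and MYOZ1 lie between 0.84 and 1.54. ATP2A1 and CASQ1 also lie above 0, and MYOZ3 lies below 0. Among the slow fiber genes TNNT1, TPM3 and MYL3 lie between 0.75 and 1.52, but not every slow fiber gene shown passed in that step.

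Of 11 listed Z-disc partners of ACTN3 and MYOZ1, 8 were measured and all 8 were higher at birth than at d 60, as were 22.6% of all features (median 2.74 against -0.07). Telethonin (TCAP), which caps titin at the Z-disc, had the largest log2 difference of the list with 4.20, followed by myotilin (MYOT, 3.18), LDB3 (3.09) and PDLIM3 (2.93), a partner of alpha-actinin. Among filament genes that fast and slow fibers share, 5 of 11 were measured and all 5 were higher at birth, among them the tropomodulin TMOD4 (3.98) and skeletal actin ACTA1 (2.67). Of 13 listed myogenic factors 4 were measured, 1 of them higher (MYF6, 2.60; 22.6% of features were higher) and 3 lower (MYOG -1.66, MYF5 -1.63 and MEF2C -1.25; 25.6% of features were lower). None of 8 listed developmental isoforms, such as the embryonic and neonatal heavy chains MYH3 and MYH8, was measured under a single name.

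Markers of the tissue moved with the stages. The defining genes of striated muscle were present, 6 of 7 measured and 6 higher at birth, and their mean level relative to Piedmontese-sired d 60 ran from 0.06 at Wagyu-sired d 60 to 2.92 at Wagyu-sired birth. Of the connective tissue markers 7 of 7 were measured and all 7 were lower at birth than at d 60, with log2 differences from -4.67 to -1.97 and a mean level from -0.19 at Wagyu-sired d 60 to -3.66 at Piedmontese-sired birth. By step, 6, 2 and 7 of them fell, beside 17%, 6.19% and 25.8% of all features, and 25.6% of features were lower at birth than at d 60. Their part in the changes of the 4 genes was not tested. The endothelial marker EGFL7 was lower at birth (log2 difference -2.48), while 0 of 2 smooth muscle markers passed, 1 of 4 immune markers was higher and 1 lower, and 2 of 7 adipocyte markers were lower. For the immune and adipocyte markers these counts lie near the shares of all features that were higher (22.6%) or lower (25.6%). Blood, epidermis, cartilage and nerve had 0 measured markers. The study notes that skin was hard to separate from muscle in its youngest fetuses, and the share of skin was not tested here.

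The named genes whose centred log2 ratios were most like those of each gene were found by Pearson correlation over the 25 fetal arrays, which share their samples and the linked groups, among 971 genes. For MYH1 these were LOC784938 (r = 0.93), GPD1 (0.92), MYOT (0.92), ATP2A1 (0.92) and PFKM (0.91), and for ACTN3 they were TMOD4 (0.93), ENO3 (0.87), PFKM (0.87), PDLIM3 (0.86) and ATP2A1 (0.84). MYOZ1 was nearest to CYC1 (0.99), CKM (0.94), LOC787122 (0.94), MB (0.93) and ALDOA (0.92), and MYL1 to TNNI2 (0.94), SMPX (0.91), PGAM2 (0.87), MYL11 (0.87) and B2M (0.87). Among the 4 genes themselves r ran from 0.44 for MYH1 with MYL1 to 0.85 for MYH1 with ACTN3, and no gene was among the nearest of both MYH1 and MYL1.

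In later crossbred muscle the differences were smaller, and all 4 genes had lower ratios at T3 than at T2 on every array of that step. For MYH1 the ratios of T3 over T2 were -0.47 and -0.31 in Piedmontese-sired and -0.29 and -0.53 in Wagyu-sired muscle, for ACTN3 -0.71 and -0.62 and -0.10 and -0.63, for MYOZ1 -0.43 and -0.55 and -0.06 and -0.25, and for MYL1 -0.14 and -0.15 and -0.14 and -1.15. The fitted changes of MYH1 (-0.40, SE 0.11, adjusted p = 0.0308), ACTN3 (-0.51, SE 0.11, adjusted p = 0.00926) and MYOZ1 (-0.32, SE 0.08, adjusted p = 0.0205) passed and that of MYL1 did not (-0.40, SE 0.29, adjusted p = 0.412). These are 3 of 4 genes, beside 10.7% of features in either direction and 3.98% downward. Intervals below 0 were held by 1 of 5 MYH1 clones, 2 of 4 ACTN3 clones, 10 of 19 MYOZ1 clones and 0 of 19 MYL1 clones. The highest MYH1 clone stood at 0.065.

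The fall from T2 to T3 rested on few arrays. Without the second Wagyu-sired array the changes were -0.35 for MYH1 (adjusted p = 0.184), -0.41 for ACTN3 (adjusted p = 0.104) and -0.30 for MYOZ1 (adjusted p = 0.119), and without the first Piedmontese-sired array -0.37, -0.50 and -0.33 (adjusted p = 0.126, 0.0582 and 0.0733). Without the second Piedmontese-sired array the call was lost for MYH1 (-0.43, adjusted p = 0.0895) and MYOZ1 (-0.29, adjusted p = 0.123), and without the arrays numbered 1 or 2 for all 3 genes, with changes from -0.62 to -0.25. The calls of MYH1 and MYOZ1 were also lost without centring (-0.39, adjusted p = 0.0658 and -0.31, adjusted p = 0.12) and without a dye term (adjusted p = 0.0727 and 0.0516). In the same step 4 of 7 connective tissue markers fell, 2 of 7 other fast fiber genes fell (3.98% of features fell; TNNI2 -0.43, adjusted p = 0.0228 and ATP2A1 -0.41, adjusted p = 0.0495), and 2 of 8 slow fiber genes rose (6.73% of features rose; MYL2 0.45, adjusted p = 0.0108 and TNNC1 0.37, adjusted p = 0.0278). These genes, and the markers EGFL7 and COL3A1, were named after their values were seen, and the part of the connective tissue markers in the result was not tested.

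From T1 to T2 MYOZ1 rose by 0.48 (SE 0.08, adjusted p = 0.00519), 1 of 4 genes beside 6.86% of features (2.8% upward). Its ratios were 0.26 and 0.59 in Piedmontese-sired and 0.41 and 0.66 in Wagyu-sired muscle, all above 0. The call was lost without the arrays numbered 1 (0.63, adjusted p = 0.142) or 2 (0.33, adjusted p = 0.225). ACTN3 had 0.03 and 0.72 and 0.20 and 0.37, with a fitted change of 0.33 (SE 0.11, adjusted p = 0.0937). MYH1 (0.17, adjusted p = 0.389) and MYL1 (0.16, adjusted p = 0.782) each had 3 of 4 ratios above 0. From T1 to T3 the fitted differences were -0.23 for MYH1, -0.18 for ACTN3, 0.16 for MYOZ1 and -0.23 for MYL1, and 0 of 4 passed or had an unadjusted limma p under 0.05, beside 0.759% of features. Over that span the change of MYH1 minus that of MYOZ1 was -0.39 (95% interval -0.70 to -0.08) and that of ACTN3 minus that of MYOZ1 was -0.34 (-0.64 to -0.04). Of 18 such intervals in the later arrays, 3 excluded 0.

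MYH1 was higher in Piedmontese-sired than in Wagyu-sired muscle on all 12 later arrays that compared the breeds, whichever dye the breeds carried. The size differed with the dye, the mean ratio being 0.46 with Piedmontese-sired RNA in Cy5 and 0.18 with Wagyu-sired RNA in Cy5. The ratios were 0.42, 0.0015, 0.15 and 0.06 at T1, 0.23, 0.15, 0.46 and 0.16 at T2, and 0.56, 0.11, 0.91 and 0.58 at T3. The lowest of them was next to 0, and 3 of the 4 highest were at T3. Fitted differences were 0.15 (SE 0.10, adjusted p = 0.479), 0.25 (SE 0.10, adjusted p = 0.197) and 0.54 (SE 0.10, adjusted p = 0.0273). The difference at T3 is 1 of 4 genes past the threshold, beside 0.539% of features (0.307% upward).

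The breed difference of MYH1 at T3 lost its call without T3 array 1 (0.58, adjusted p = 0.0593), 3 (0.46, adjusted p = 0.255) or 4 (0.50, adjusted p = 0.115), without Piedmontese-sired T2 to T3 array 2 (0.53, adjusted p = 0.0548), without the arrays of any one number (0.45 to 0.60), without centring (0.53, adjusted p = 0.0638), without a dye term (0.49, adjusted p = 0.0919) and with array number as a block (0.33, adjusted p = 0.429). The breed difference of MYH1 at T3 was larger than at T1 by 0.39 with an unadjusted p of 0.0188 that did not pass after adjustment over all features in limma (adjusted p = 0.419). Of 12 such contrasts of the change over time between breeds in the 4 genes, 2 had an unadjusted limma p under 0.05 and none passed, beside 1.13%, 0.84% and 0.116% of features for T2 over T1, T3 over T2 and T3 over T1. The clones annotated MYH2;MYH2;MYH1 had a difference of 0.42 at T3 (95% interval 0.13 to 0.70). Among the 7 other fast fiber genes measured, ATP2A1 was higher in Piedmontese-sired muscle at T3 (0.54, adjusted p = 0.048), as were 0.307% of features. It was named after its value was seen. In the same comparison 1 of 7 connective tissue markers was lower (COL3A1, -0.54, adjusted p = 0.039), as were 0.232% of features, and its part in the result was not tested.

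ACTN3 and MYOZ1 did not pass between breeds at T1, T2 or T3. ACTN3 was above 0 on 9 of 12 arrays (-0.22 to 0.63) and MYOZ1 on 10 of 12 (-0.08 to 0.29). At T2 no gene passed (beside 3.28% of features), although MYH1, ACTN3 (0.23) and MYOZ1 (0.20) had unadjusted limma p-values of 0.0169, 0.027 and 0.0124 (adjusted p = 0.197, 0.244 and 0.17). At T1, where 0.753% of features passed, none of the 4 had an unadjusted p under 0.05.

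The later ratios of all 4 genes moved with the dye, those of MYL1 the most. With Piedmontese-sired RNA in Cy5 the MYL1 ratio of Piedmontese-sired over Wagyu-sired muscle was above 0 on 3 of 6 arrays (-0.80 to 0.75), and with Wagyu-sired RNA in Cy5 on 6 of 6 (0.07 to 1.72). For MYH1, ACTN3 and MYOZ1 the ratio was above 0 on 6 of 6 arrays with Piedmontese-sired RNA in Cy5. With Wagyu-sired RNA in Cy5 it was above 0 on 6, 3 and 4 of 6 arrays. The fitted dye term of MYL1 was -0.35 (95% interval -0.63 to -0.07). Those of MYH1 (0.14, 0.03 to 0.25), ACTN3 (0.14, 0.02 to 0.25) and MYOZ1 (0.09, 0.01 to 0.18) had the other sign, and their intervals also excluded 0. The MYL1 breed differences of 0.49 at T1, 0.28 at T2 and 0.25 at T3 had SEs of 0.24 to 0.27 and did not pass (adjusted p = 0.379, 0.618 and 0.756), so that for MYL1 a difference of the size seen for MYH1 at T3 was not detectable at this spread.

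In the order of fitted levels relative to Piedmontese-sired T1, MYH1 ran from -0.58 at Wagyu-sired T3 through -0.15 at Wagyu-sired T1, -0.04 at Piedmontese-sired T3 and -0.03 at Wagyu-sired T2 to 0.22 at Piedmontese-sired T2. ACTN3 ran from -0.28 at Wagyu-sired T3 and -0.08 at Piedmontese-sired T3 through 0.01 and 0.22 at Wagyu-sired T1 and T2 to 0.45 at Piedmontese-sired T2. Piedmontese-sired T2 was the highest group for each of the 4 genes, and Wagyu-sired T3 the lowest for all but MYOZ1. MYOZ1 ran from -0.12 at Wagyu-sired T1 through 0.04 and 0.15 at Wagyu-sired and Piedmontese-sired T3 and 0.32 at Wagyu-sired T2 to 0.52 at Piedmontese-sired T2. MYL1 ran from -0.60 at Wagyu-sired T3 through -0.49 at Wagyu-sired T1, -0.35 at Piedmontese-sired T3 and -0.22 at Wagyu-sired T2 to 0.06 at Piedmontese-sired T2, with SEs of 0.27 to 0.45 against 0.077 to 0.18 for the other 3 genes. No neighbours in these orders differed past the threshold.

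**Figure D5:**
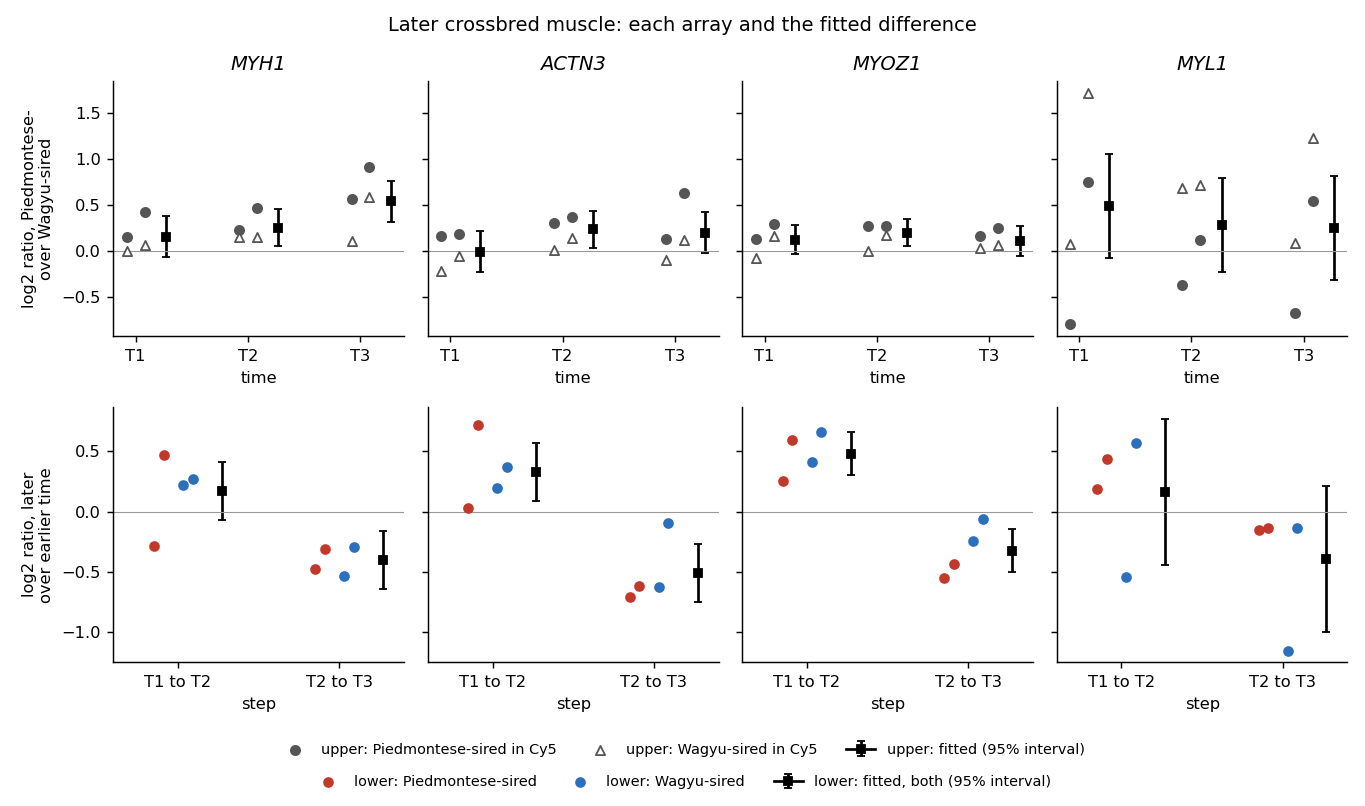
Log2 ratios in later crossbred muscle, with each array as a point and the fitted difference and its 95% interval as a black square. The upper row shows Piedmontese-sired over Wagyu-sired muscle (y axis) at T1, T2 and T3 (x axis) by the breed in Cy5, and the lower row the later over the earlier time (y axis) in the 2 steps (x axis) by sire breed; all 12 MYH1 points of the upper row are above 0, and all points of the T2 to T3 step are below 0.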

How the data were processed

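Processed values of 25 fetal arrays, 20 later crossbred arrays and 1 self-hybridisation were used, grouped by the dye labels. The deposited values, read as log2 ratios of Cy5 over Cy3, were obtained by the authors from amplified RNA with GenePix scanning and image analysis. The array held cDNA of adult Angus muscle and fat. Editing and background correction of these ratios before deposit are not given in full in the sources used here. Ratios at the highest value that the table holds (16.61) were treated as missing, which took 24 to 216 elements per fetal and 30 to 80 per later array. Arrays were centred on their medians, elements with 1 gene symbol (4490 of 21168) were averaged per gene, and features needed values on 20 of the 25 fetal or 16 of the 20 later arrays. Another 24 columns of the table, and a further table of the series, were not used.

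Models of limma 3.58.1 (R 4.3.3) took each ratio as the Cy5 group less the Cy3 group beside a dye intercept, separately for the fetal arrays (17 residual degrees of freedom) and the later arrays (14). The study itself fitted a mixed model to log intensities. Arrays were taken as independent. Deviations of same-numbered fetal arrays correlated from -0.66 to 0.66 (median -0.01, 24 of 84 pairs above 0.1). In the later arrays the correlations ran from -0.47 to 0.63 (median 0.07, 24 of 48 pairs above 0.1). An animal shared by neighbouring fetal arrays would be in a different dye on each, which turns the sign. This check therefore cannot decide whether array numbers pair the samples. Simulated data tested the fit. In the fetal d 195 over d 135 comparison of 16659 features, 87 of 100 changes of log2 1 and 98 of 100 of log2 2 were recovered with 10 false calls, and in the later T3 over T2 comparison of 17253 features 74 and 96 with 8. The simulated noise was independent between arrays, so arrays that share animals were not covered. Changes smaller than log2 1, such as those called in the later arrays, were not simulated.

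The 4 genes, the gene lists and the tests were chosen with earlier results of these data known. Named genes are the 4 genes, up to 4 measured genes per list with the smallest p for birth over d 60 and those that went against the rest, and the 5 nearest named genes by correlation. The list symbol MYLPF was read as MYL11 through the RefSeq gene table, which also held 4472 of the 4490 gene identifiers. Alternatives were no centring, scaling to one median absolute deviation, capped ratios kept, medians over elements, no filter, array weights, no dye intercept, array number as a block, and each array or array number left out. The number of arrays limits the precision. Intensities were not used here.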

Additional observations from a re-analysis of the deposited data

How the results depend on the processing

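Of 108 results over all alternatives, 26 turned their sign under at least 1 of them, and none of these was past the threshold in the reported fit or under that alternative. In the fetal arrays 2393 values kept direction and side of the threshold, 61 lost a call, 14 gained one and 48 turned, and in the later arrays 1168, 78, 7 and 27. The changes of MYH1, ACTN3, MYOZ1 and MYL1 from d 60 to birth kept their direction and call under every alternative run, and the cause of the changes below was not tested. The number of arrays limits the later experiment most, since leaving arrays out moved its 11 calls to between 0 and 11.

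Without centring, Piedmontese-sired over Wagyu-sired was 0.014 for ACTN3 at d 60, 0.34 for MYH1 at d 135 and 0.0070 for MYOZ1 at birth, and in the later arrays the calls were 1 for T3 over T2, 0 for the breeds at T3 and 4 in all. This setting moved the median of all features by up to 0.37 (fetal) and 0.087 (later). With arrays scaled to one median absolute deviation, birth over d 195 was 0.031 for MYL1 in Piedmontese-sired muscle, Piedmontese-sired over Wagyu-sired was -0.15 for MYOZ1 at d 135, -0.031 for MYH1 and -0.075 for MYOZ1 at d 195, 0.050 for ACTN3 at birth and 0.0030 for ACTN3 at T1, the last minus the middle step was -0.40 for MYH1, and the last minus the first step was -0.18 for MYOZ1. With capped ratios kept, the breeds at d 135 differed by 0.11 for MYH1. With medians over elements, birth over d 195 was 0.019 for MYL1 in Piedmontese-sired muscle, the breed differences were 0.056 for ACTN3 at d 60 and 0.040 for MYH1 at d 135, T2 over T1 was -0.015 for MYH1 in Wagyu-sired muscle, and MYH1 minus MYL1 was -0.072 for T2 over T1, 0.047 for T3 over T2 and -0.025 for T3 over T1. With array weights, the breed differences were 0.035 for MYH1 at d 135, 0.025 for ACTN3 at T1 and -0.12 for MYL1 at T3, and T2 over T1 was -0.0096 for MYL1 over both breeds and -0.061 in Wagyu-sired muscle. Without a dye intercept the later calls were 1 for T3 over T2, 0 for the breeds at T3 and 5 in all, and the breeds differed by 0.042 for ACTN3 at T1.

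With the array number as a replicate block, the later breed differences were -0.059 for MYH1 at T1, -0.023 for ACTN3 at T3 and -0.018 for MYL1 at T3, and 0 genes passed at T3, where MYH1 had 0.33 (adjusted p = 0.429). The fetal calls lost were those of MYOZ1 for d 195 over d 135 in Piedmontese-sired (0.73, adjusted p = 0.0705) and Wagyu-sired muscle (0.55, adjusted p = 0.177). Whether the numbers pair the samples is not known.

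With single arrays or array numbers left out, the calls for d 135 over d 60 ran from 2 (without array 1 of Wagyu-sired d 135 over d 60) to 4, and those for the breeds at birth from 0 to 1. Birth over d 195 of MYL1 ran from -0.19 to 0.061 over both breeds, from -0.17 to 0.15 in Piedmontese-sired and from -0.20 to 0.044 in Wagyu-sired muscle. The breed difference at d 60 ran from -0.13 to 0.085 for ACTN3, from -0.16 to 0.013 for MYOZ1 and from -0.31 to 0.022 for MYL1. At d 135 it ran from -0.20 to 0.21 for MYH1, from -0.012 to 0.30 for MYOZ1 and from -0.16 to 0.44 for MYL1. At d 195 it ran from -0.25 to 0.79 for MYH1, and at birth from -0.70 to 0.12 for ACTN3 and from -0.35 to 0.15 for MYOZ1. In the later arrays the calls ran from 0 to 1 for T2 over T1, from 0 to 3 for T3 over T2 and from 0 to 1 for the breeds at T3. T2 over T1 ran from -0.032 to 0.37 for MYH1 and from -0.10 to 0.38 for MYL1 over both breeds, from -0.015 to 0.49 for MYH1 and -0.13 to 0.37 for MYL1 in Piedmontese-sired muscle, and from -0.049 to 0.26 for MYH1 and -0.14 to 0.50 for MYL1 in Wagyu-sired muscle. T3 over T1 of MYL1 ran from -0.71 to 0.24, and the breed difference of ACTN3 at T1 from -0.050 to 0.040.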

Other observations

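On the self-hybridisation array, where Piedmontese-sired T1 RNA was in both channels, the log2 ratio was 0.01 for MYH1, 0.13 for ACTN3, 0.14 for MYOZ1 and -0.34 for MYL1, while the central 95% of named genes lay between -0.57 and 0.56.

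Over the 20 later arrays the named genes most like the 4 by Pearson correlation, among 969, were MMP9 (0.87), ADI1, SGCA, NFE2L1 and SLC25A20 for MYH1, LOC613595 (0.91), MMP9, CYC1, RNF34 and ENO3 for ACTN3, CYC1 (0.95), PCBP1, EIF1, STAU2 and ASB12 for MYOZ1, and LOC784938 (0.97), GALNT16, ACTA1, LDHA and SYPL2 for MYL1. CYC1 was thus nearest to MYOZ1 in both experiments. CYC1 was represented by 2 elements of a single clone.

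Duplicate spots of a clone differed by a median of 0.155 (MYH1), 0.078 (ACTN3), 0.101 (MYOZ1) and 0.066 (MYL1) on the log2 scale in the fetal arrays. Over the same arrays the median correlation between different clones of a gene was 0.96 for MYL1, 0.94 for MYOZ1, 0.78 for MYH1 and 0.77 for ACTN3. In the later arrays it was 0.87 for MYL1, 0.55 for MYOZ1, 0.41 for ACTN3 and 0.28 for MYH1.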
